A study of Mus musculus with 6 samples.

Results

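The genes described here carry symbols of subunits of oxidative phosphorylation, the 4 respiratory chain complexes and ATP synthase. They were measured in the livers of male mice whose Ephb2 gene carries loxP sites. They were chosen by symbol from a table of read counts per gene: protein-coding genes named as NADH dehydrogenase subunits (Nduf followed by a, b, c, s or v and a number), Sdha to Sdhd, Uqcr, Cox4 to Cox8, Atp5 and the mitochondrial mt-Nd, mt-Co, mt-Atp and mt-Cytb genes, with 10 or more counts in at least 3 of the 6 libraries. This gave 91 of the 55416 genes in the table, 79 encoded in the nucleus and 12 in the mitochondrial genome. Complex I had 41 members, complex II 4, complex III 9, complex IV 18 and complex V (ATP synthase) 19. Membership follows the symbol, so genes such as Atp5s and Ndufa4l2 are included without a check that each is a structural subunit. Of 110 genes with a matching symbol, 12 were not annotated as protein-coding and 7 protein-coding ones were under the count minimum. All 91 members also passed the count filter of the test, as did 17083 genes in all.

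Every mouse carried 2 floxed copies of Ephb2, a receptor tyrosine kinase for ephrins, and received tamoxifen on 5 days at an age of 8 to 10 weeks, followed by 8 weeks on a high-fat diet made of amino acids and lacking choline (45% of energy as fat, 0.1% methionine, 1% cholesterol). The WT group (n = 3) had no Cre and the KO group (n = 3) had the tamoxifen-inducible Pdgfrb-CreERT2 driver, which acts in hepatic stellate cells and other mesenchymal cells. No group without the diet or without tamoxifen was part of the comparison, so the levels below are those of livers on the diet. RNA came from whole liver, in which the recombined cells are a minority, and fewer cells of a type and less RNA per cell cannot be told apart. The labels do not say that the libraries of a group came from separate animals, so that p-values measure the spread between these libraries.

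Oxidative phosphorylation passes electrons from NADH (complex I) or succinate (complex II) through ubiquinone, complex III, cytochrome c and complex IV to oxygen, and the proton gradient built on the way drives ATP synthase. Complexes I, III, IV and V are assembled from subunits of both genomes, whereas all subunits of complex II are nuclear. The mitochondrial genes are transcribed as long polycistronic RNAs from both strands and cut apart at the tRNAs, while the nuclear genes have promoters of their own, many of them CpG-rich and bound by the factors NRF1, YY1 and ETS proteins such as GABPA. The liver is rich in mitochondria and uses them for fatty acid oxidation, gluconeogenesis and the urea cycle.

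To show what the members share in sequence, promoters (250 bases before to 50 bases after a gene's start) were taken from RefSeq on GRCm38.p6, where 66 of the 79 nuclear members matched with 71 promoters. Motifs were searched on both strands. The NRF1 core CGCATGCG was in 9 of the 71 members' promoters (12.7%) and in 2.52% of all 21262 promoters of protein-coding genes. The YY1 core AAGATGGC was in 10 (14.1%) against 3.05%, the ETS core CCGGAAGT in 5 (7.04%) against 5.15%, and TATAAA in 6 (8.45%) against 12.6%. The shorter NRF1 element GCGCA, which can overlap the longer core, was in 46 (64.8%) against 38.0%. The median GC content was 57.7% in the members' promoters and 56.3% in all. These shares describe letters in a window and say nothing of binding. The 3 promoters below are shown because they hold these motifs in members from complexes I, IV and III, with the motif in capitals. That of Ndufs6 (chr13:73328433-73328732, minus strand) holds the YY1 core from base 284. That of Cox6a1 (chr5:115348909-115349208, minus strand) holds the NRF1 core from base 90. That of Uqcr11 (chr10:80406772-80407071, minus strand) holds the ETS core from base 185 and the NRF1 core from base 246. Each is printed 5′ to 3′ on the gene's strand.
Ndufs6: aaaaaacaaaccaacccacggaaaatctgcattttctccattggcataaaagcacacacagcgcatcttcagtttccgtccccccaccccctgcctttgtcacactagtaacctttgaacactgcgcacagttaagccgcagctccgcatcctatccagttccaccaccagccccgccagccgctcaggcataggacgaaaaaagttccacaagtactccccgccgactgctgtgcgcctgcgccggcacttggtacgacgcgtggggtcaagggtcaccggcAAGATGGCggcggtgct
Cox6a1: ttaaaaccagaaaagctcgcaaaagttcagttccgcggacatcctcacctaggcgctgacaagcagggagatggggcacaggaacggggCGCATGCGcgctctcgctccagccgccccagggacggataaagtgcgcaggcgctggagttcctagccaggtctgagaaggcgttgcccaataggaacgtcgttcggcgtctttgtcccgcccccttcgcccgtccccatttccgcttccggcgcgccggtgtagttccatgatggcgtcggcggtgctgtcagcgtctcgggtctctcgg
Uqcr11: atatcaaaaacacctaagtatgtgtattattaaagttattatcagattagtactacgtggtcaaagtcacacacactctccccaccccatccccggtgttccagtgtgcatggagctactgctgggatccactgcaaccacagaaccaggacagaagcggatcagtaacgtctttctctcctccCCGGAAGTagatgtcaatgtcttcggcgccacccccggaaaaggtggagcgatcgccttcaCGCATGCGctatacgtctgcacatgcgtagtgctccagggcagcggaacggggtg

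The mitochondrial members include genes with near-identical copies in the nuclear genome, and reads from such a gene cannot be assigned to one genome by sequence. A run of 7 annotated copies of mitochondrial genes lies on the minus strand of chromosome 1 (GRCm38, chr1:24611535-24616197). Over the whole aligned length, the copies of mt-Co2 (681 bases), mt-Atp6 (678), mt-Co3 (783), mt-Nd4l (294) and mt-Nd4 (876) were identical to the mitochondrial gene. The copy of mt-Nd3 differed at 1 of 345 bases (T3C) and that of mt-Co1 at 1 of 483 (A1066T), with the mitochondrial base first and positions counted from the first base of the mitochondrial gene. A 150-base read from such a stretch fits either genome, as the first 60 bases of mt-Co2 and of its copy Gm28661 show. By contrast, mt-Nd2 and its partial copy Gm13339 on chromosome 2 were 96.7% identical over 510 bases, and bases 571 to 690 are shown with their 5 differences in capitals: T579C, T603A, C638T, A668G and C681T.
mt-Co2: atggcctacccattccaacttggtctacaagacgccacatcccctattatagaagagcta
Gm28661: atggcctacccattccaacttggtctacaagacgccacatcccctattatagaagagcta
mt-Nd2: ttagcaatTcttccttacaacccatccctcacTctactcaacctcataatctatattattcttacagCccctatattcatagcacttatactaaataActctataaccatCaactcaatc
Gm13339: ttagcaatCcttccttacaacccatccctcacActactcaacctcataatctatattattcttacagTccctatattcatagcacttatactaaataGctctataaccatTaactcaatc

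Total counts were 21160690 to 26339251 per library. Ephb2 lay at 9.45, 8.27 and 12.4 CPM (counts scaled to the library total, with TMM factors) in the WT libraries and at 6.01, 8.86 and 6.94 in the KO libraries. KO replicate 2 lay above WT replicate 2, and the log2 fold change (KO minus WT throughout) of -0.46 (SE 0.21) had an adjusted p of 0.850 (edgeR's quasi-likelihood test, Benjamini-Hochberg), so whole liver gave no check of the deletion in the targeted cells. The tissue label was checked on hepatocyte markers, of which all 12 were detected, with a summed level of 69644 to 77760 CPM in WT and 61887 to 77603 in KO. Acute phase genes split the libraries across the genotypes, at 15369, 6938 and 18968 CPM in WT and 7963, 23307 and 7078 in KO. WT replicate 3 had the highest summed level of erythroid genes (862 CPM, against 199 to 356 in the other libraries) and of neutrophil genes (136 CPM, against 28.8 to 89.3).

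No subunit gene of either genome passed the test between genotypes. The nuclear subunit genes lay slightly lower in KO in nearly every case, and the mitochondrial ones did not share that pattern. Of the 79 nuclear members, 76 (96.2%) had a negative log2 fold change, against 51.0% of all genes tested, with a median of -0.13 against -0.0048 and a range from -0.70 to 0.30. Of the 12 mitochondrial members, 4 had a negative one and the median was 0.06 (range -0.17 to 0.30). With edgeR's quasi-likelihood test 0 of 17083 genes were called at an adjusted p of 0.05 (0%), and the smallest adjusted p of a member was 0.850. At an unadjusted p under 0.05, 4 members lay lower (359 genes, 2.1% of all tested) and 0 higher (527 genes, 3.08%). That count of members was 10 without WT replicate 2, 9 without KO replicate 1 and 1 without WT replicate 1, KO replicate 2 or KO replicate 3. Over all genes the count at that threshold ran from 452 to 1858 with 1 library left out. The member counts are therefore not a result about the members alone. DESeq2 called 7 of 29606 genes (0.0236%) and limma-voom 0, and no member was among them.

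**Figure D1:**
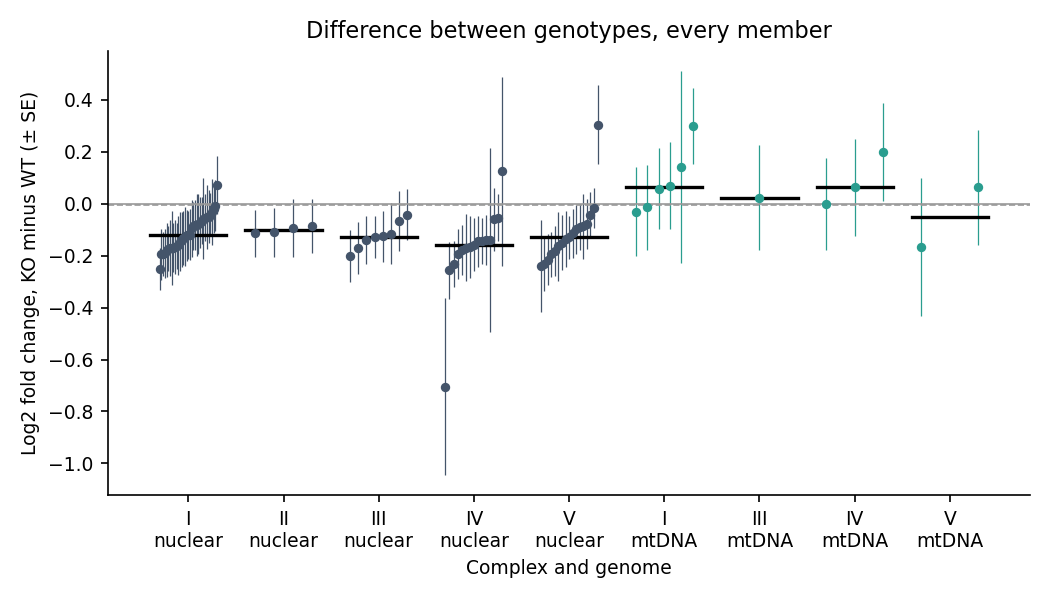
Log2 fold change (KO minus WT) of each of the 91 members, by complex and genome, with points for genes, thin bars for 1 SE and black lines for medians. Grey lines mark 0 and, dashed, the median of all genes tested (-0.0048). Nuclear members cluster around -0.13 in every complex, the mitochondrial ones around 0.06, and most SE bars of the nuclear members are nearly as long as the distance to 0.

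The nuclear difference was close in size to the spread of a gene between libraries. The median SD within genotypes of a nuclear member was 0.110 on the log2 scale, against a median log2 fold change of -0.13. It was below the 0.192 of all genes, which were not matched to the members in level. The 12 mitochondrial members had 0.203, and the 7 of them without near-identical copies over their whole length had 0.176. In 13 of the 79 nuclear members (16.5%) all KO libraries lay below all WT libraries, as in 4.9% of all genes, and in 0 all lay above (6.21% of all genes). These 13 were Ndufa2, Ndufa12, Ndufb9, Ndufb11 and Ndufs6 of complex I, Uqcrh of complex III, Cox7a1, Cox7a2 and Cox7c of complex IV, and Atp5c1, Atp5d, Atp5h and Atp5j2 of complex V. Cox7a1 was the 1 of them that met the count minimum through its WT libraries. None of the mitochondrial members separated the genotypes. The nuclear members are measured in the same libraries and are not independent of each other, so their number adds no replicates.

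The nuclear difference was largest in KO replicate 2. It had the lowest level of 60 of the 79 nuclear members (75.9%), against 15.3% of all genes, and the highest of none. The highest level fell in WT replicate 1 for 29 members, in WT replicate 3 for 21 and in WT replicate 2 for 18, leaving 8 for KO replicate 1 and 3 for KO replicate 3. As a median deviation from each gene's mean over the 6 libraries (log2 CPM), the nuclear members lay at 0.097, 0.030 and 0.045 in the WT libraries and at 0.046, -0.163 and -0.065 in the KO libraries. KO replicate 1 therefore lay within the WT range, and KO replicates 2 and 3 below it. Without KO replicate 2, 64 of the 79 (81.0%) were negative and the median was -0.081. Without KO replicate 1 the median was -0.19. Complexes II and III had their lowest value in KO replicate 2 for all of their nuclear members, complex V for 15 of 17, complex IV for 11 of 15 and complex I for 22 of 35. The same library had the lowest hepatocyte marker sum (61887 CPM) and the highest acute phase sum (23307 CPM) of the 6. Hepatocyte markers were negative in 11 of 12 (median log2 fold change -0.07), and 0 of them were called. Cholangiocyte markers were positive in 10 of 10 (median 0.36, 4 at an unadjusted p under 0.05, 0 called). Their summed level was 901, 1221 and 1142 CPM in WT and 1251, 1591 and 1516 in KO, without overlap, and it too was outermost in KO replicate 2. Cell cycle markers were negative in 6 of 6 (median -0.32, 0 called). Their sums were 174.0 to 212.1 CPM in WT and 151.8 to 173.6 in KO, lowest in KO replicate 2. Endothelial markers were negative in 10 of 10 (median -0.24, 0 called), with sums that overlapped and were lowest in KO replicate 3. Erythroid markers were negative in 5 of 5 tested (median -0.91), neutrophil markers in 7 of 7 (-0.85) and Kupffer and macrophage markers in 8 of 11 (-0.29). Stellate and fibroblast markers were negative in 6 of 11 (-0.01) and lymphocyte markers in 2 of 10 (0.11). None of these was called, and the sums of each overlapped between genotypes. The part of these marker groups in the result was not tested. WT replicate 3, with the next highest acute phase sum (18968 CPM), had a nuclear median deviation of 0.045.

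**Figure D2:**
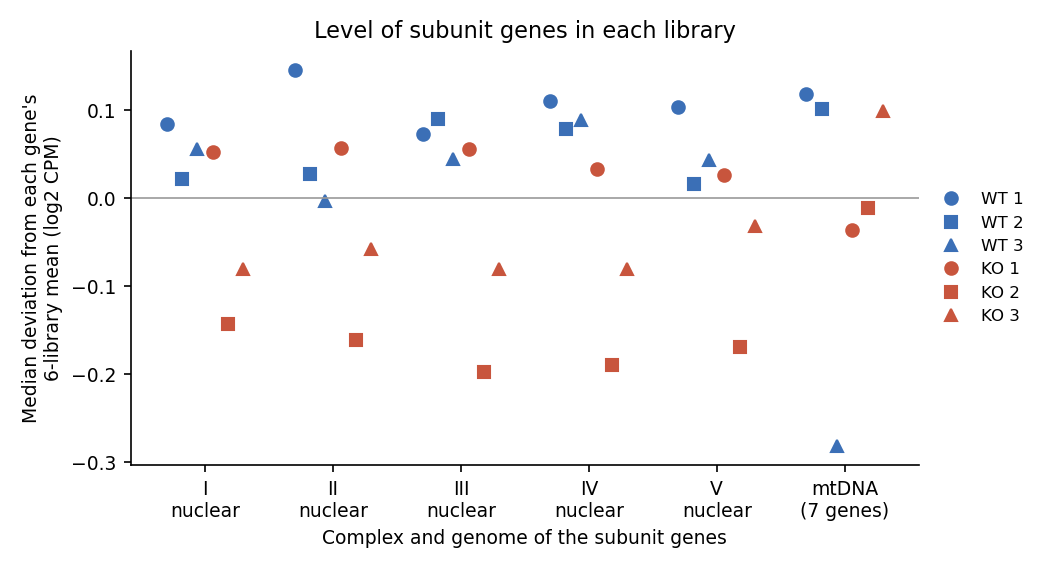
Median deviation of the members from each gene's 6-library mean (log2 CPM, y axis) for each complex and genome (x axis), with 1 point per library, coloured by genotype and shaped by replicate. KO replicate 2 is the lowest point in each of the 5 nuclear groups, and WT replicate 3 is the lowest in the mitochondrial group, at -0.282.

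The choice of scaling moved all genes together but not the distance of the subunits from them. With scaling by library size alone, all genes had a median of 0.075 and the nuclear members one of -0.047, a distance of -0.12 as with TMM, and 57 of 79 (72.2%) were negative against 32.9% of all genes. The 19 nuclear members that changed sign had values between -0.08 and -0.01 with TMM. KO replicate 2 was then lowest in 58 of the 79.

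Complex I oxidises NADH and is the largest member of the chain. Its 35 nuclear members had a median log2 fold change of -0.12, and 34 were negative. The accessory subunit Ndufs6, which binds zinc and joins the NADH-oxidising arm late in assembly (chr13:73319838-73328542, minus strand), had the smallest p of all members. Ndufs6 lay at 36.5, 35.1 and 36.6 CPM in the WT libraries, against 32.1, 29.0 and 29.8 in KO. The groups did not overlap, and the log2 fold change of -0.25 (SE 0.08, unadjusted p 0.0157) had an adjusted p of 0.850 with edgeR's quasi-likelihood test and Benjamini-Hochberg adjustment, as did the other members at an unadjusted p under 0.05. Ndufa2, an accessory subunit of the same arm, lay at 43.2, 40.6 and 45.9 CPM in the WT libraries, against 37.9, 39.0 and 36.4 in KO. Its groups did not overlap either, with a log2 fold change of -0.19 (SE 0.08). Ndufb9, of the membrane arm, lay at 77.8, 81.0 and 80.8 CPM in the WT libraries, against 72.8, 61.9 and 75.1 in KO, where replicate 2 stands below the rest. Among core subunits, which hold the flavin or iron-sulphur clusters or fold around them, values ran from -0.17 (Ndufs8) through -0.14 (Ndufv1), -0.05 (Ndufs3) and -0.03 (Ndufs1) to -0.02 (Ndufv2) and -0.01 (Ndufs7), of which Ndufs3, Ndufs1, Ndufv2 and Ndufs7 were positive (0.03 to 0.07) when libraries were scaled by size alone. Ndufb3 was the 1 nuclear complex I member with a positive value, 0.07 (SE 0.11).

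Complex II is succinate dehydrogenase, an enzyme of the citric acid cycle as well as of the chain. Its 4 subunits had nearly equal differences, from -0.11 for the iron-sulphur subunit Sdhb and the membrane anchor Sdhc to -0.09 for the flavoprotein Sdha and the anchor Sdhd. Sdha lay at 334, 323 and 308 CPM in the WT libraries, against 325, 270 and 310 in KO. Only KO replicate 2 lay below the WT range, and the 95% interval of the log2 fold change ran from -0.35 to 0.16.

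Complex III passes electrons from ubiquinol to cytochrome c. All 8 nuclear members were negative (median -0.13), though Uqcrb and Uqcrc2 were not when libraries were scaled by size alone. Uqcrq, a small subunit next to cytochrome b, lay at 169, 145 and 159 CPM in the WT libraries, against 147, 127 and 137 in KO. WT replicate 2 lay between the KO values, and the log2 fold change was -0.20 (SE 0.10). Uqcr10 (-0.17, SE 0.10) had KO replicate 2 as its outermost value, 34.4 CPM against 40.7 to 45.8 in the other libraries. The hinge protein Uqcrh (-0.13, SE 0.08) lay at 72.4, 74.0 and 70.6 CPM in the WT libraries, against 70.1, 62.4 and 66.1 in KO, just without overlap. Uqcrb (-0.04, SE 0.10) was nearest to 0, and its value with that scaling was 0.038. Cyc1, the cytochrome c1 subunit, does not match the symbol rule. It lay at 103 ± 1.88 CPM in WT and 91.1 ± 13.5 in KO (SD, n = 3 each; log2 fold change -0.17, SE 0.11).

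Complex IV, cytochrome c oxidase, had the largest median difference of the nuclear groups, -0.16 over 15 members, of which 14 were negative. Cox6a1, the liver form of a regulatory subunit (chr5:115345642-115348981, minus strand), lay at 134, 125 and 117 CPM in the WT libraries, against 117, 93.3 and 104 in KO. WT replicate 3 and KO replicate 1 met near 117, and the log2 fold change was -0.26 (SE 0.11). Cox7a2 (chr9:79755361-79759878, minus strand), a small subunit at the dimer interface, lay at 60.5, 61.7 and 62.1 CPM in the WT libraries, against 57.9, 49.6 and 49.4 in KO. Its groups did not overlap, with a log2 fold change of -0.23 (SE 0.09). Ndufa4, once assigned to complex I and now counted with complex IV, had one of -0.05 (SE 0.09), which was 0.027 when libraries were scaled by size alone.

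Several complex IV subunits exist as paired genes for different tissues, and the liver libraries held mainly 1 form of each. Levels between genes are compared as CPM per kilobase of merged exons, mean of the 6 libraries. Cox4i1 lay at 145 and Cox4i2, the lung and hypoxia form, at 0.272, a ratio of 534. Cox6a1 lay at 164 and Cox6a2, the heart and muscle form, at 0.379, a ratio of 432. Cox8a lay at 137 and Cox8b, also a heart and muscle form, at 0.204, a ratio of 670 that rests on 10 counts of Cox8b in all 6 libraries. Cox6b1 exceeded the testis form Cox6b2 365-fold (151 against 0.413), and Cox7a2 exceeded the muscle form Cox7a1 56.2-fold (60.2 against 1.07). Ndufa4 exceeded its paralog Ndufa4l2, a target of hypoxia-inducible factors, 38.4-fold (62.0 against 1.62). Cox7b2 and Cox8c had 0 counts in all libraries, which allows up to 3 counts over the 6 or 0.0219 CPM, covering counting error only. With the length of 1 principal transcript per gene in place of merged exons, the ratios were 1007 for Cox4i1, 531 for Cox6a1, 754 for Cox8a, 221 for Cox6b1, 59.2 for Cox7a2 and 74.1 for Ndufa4. The order within each pair was the same.

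**Figure D3:**
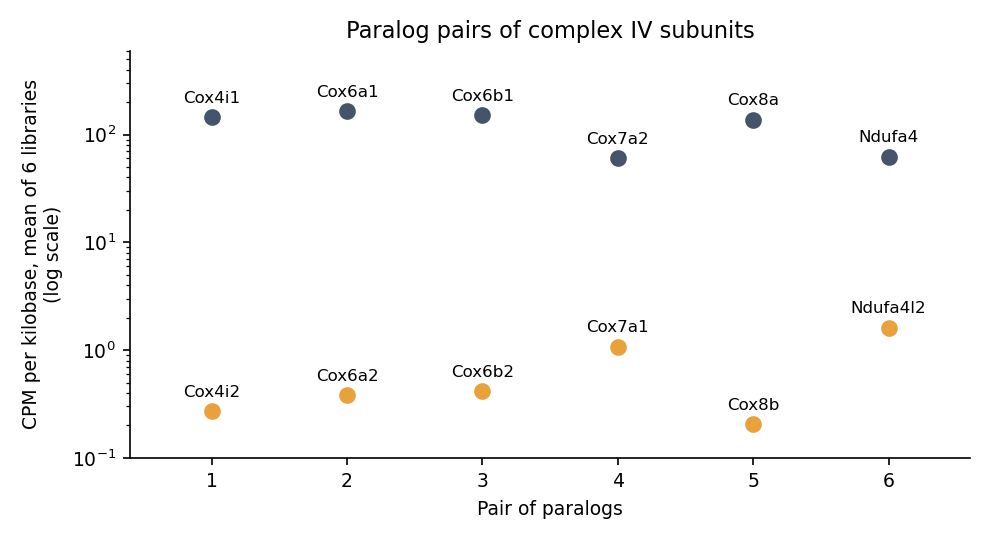
CPM per kilobase (log scale, mean of the 6 libraries) of paralog pairs, numbered 1 for Cox4i1 and Cox4i2, 2 for Cox6a1 and Cox6a2, 3 for Cox6b1 and Cox6b2, 4 for Cox7a2 and Cox7a1, 5 for Cox8a and Cox8b and 6 for Ndufa4 and Ndufa4l2. The first gene of each pair lies at 60.2 to 164 and the other at 0.204 to 1.62.

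The low partners were measured with few counts. Cox7a1 (chr7:30184144-30186078, plus strand) had the lowest log2 fold change of all members, -0.70 (SE 0.34), from 0.643, 0.629 and 0.860 CPM in WT against 0.566, 0.341 and 0.401 in KO. These are 13, 15 and 18 counts in WT and 13, 9 and 9 in KO, and the groups did not overlap. The WT counts alone met the member minimum and the KO counts alone would not. A gene at the KO level in all libraries could therefore have been left out. The next lowest nuclear member was Cox6a1, at -0.26. Cox7a1 and Cox6b2 were the members just inside the count minimum, with 10 or more counts in 4 libraries. Just outside it were mt-Nd3, with 10 or more in 2, and Cox4i2 and Cox6a2, with 10 or more in 1. Cox6b2 (0.382 to 0.594 CPM in WT, 0.341 to 0.490 in KO) and Ndufa4l2 (1.22 to 2.39 and 1.18 to 2.58) overlapped throughout. Striated muscle markers summed to 1.38 to 1.96 CPM in WT and 2.09 to 2.85 in KO, over 16 listed genes of which Myh4, Myh6 and Pvalb had no counts. Their part in the levels of the muscle forms was not tested.

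Complex V makes ATP. Its 17 nuclear members had a median log2 fold change of -0.13, and 16 were negative. The catalytic F1 subunit Atp5b lay at 838, 852 and 868 CPM in the WT libraries, against 852, 663 and 767 in KO. KO replicate 1 lay at the level of WT replicate 2 and KO replicate 2 lay far below, with a log2 fold change of -0.16 (SE 0.13). Atp5a1, its partner in the F1 hexamer, had -0.09 (SE 0.13) and the same lowest library, 513 CPM against 594 to 642 in the others. Atp5d, of the central stalk, lay at 124, 116 and 116 CPM in the WT libraries, against 114, 95.2 and 97.0 in KO, without overlap (-0.22, SE 0.10). Atp5j2, of the membrane part, lay at 60.9, 52.6 and 56.7 CPM in the WT libraries, against 49.2, 47.6 and 51.8 in KO, also without overlap (-0.19, SE 0.09). The 3 genes for the identical mature c subunit of the rotor gave similar differences, -0.23 (SE 0.10) for Atp5g1, -0.18 (SE 0.10) for Atp5g2 and -0.15 (SE 0.11) for Atp5g3. Per kilobase Atp5g3 was the highest of these, at 60.6 against 31.5 for Atp5g2 and 16.9 for Atp5g1. The place of Atp5g1 rests on its merged exon length of 4912 bases, against 1675 for Atp5g2. By CPM without length Atp5g1 (83.2) lay above Atp5g2 (52.7). Atp5s, coupling factor B, was the member with the highest value of either genome, 0.30 (SE 0.15). Atp5s lay at 5.54, 6.13 and 5.26 CPM in the WT libraries, against 7.22, 6.10 and 7.61 in KO, where replicate 2 lay within the WT range.

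Within complexes, levels per kilobase spanned wide ranges in nuclear genes although most subunits are present once per complex. The median was 23.4 CPM per kilobase in complex I, 31.5 in V, 47.6 in IV, 52.2 in II and 63.9 in III. With principal transcript lengths it was 41.4, 79.9, 86.3, 73.0 and 96.8. Complexes I and III were lowest and highest with either length, and the order of the others changed. Over merged exons Atp5a1 (191) and Atp5b (190.4) were the highest nuclear members, followed by Cox6a1 of complex IV at 164. Over principal transcripts Atp5b (421) was highest, followed by Cox4i1 (294) and Atp5a1 (242). In complex III Uqcrq was highest over merged exons, at 80.4, and Uqcrh over principal transcripts, at 127. Sdha of complex II (75.5 and 107) and Ndufb9 of complex I (72.7 and 106) were highest with either length. The lowest, with either length, were over merged exons Atp5s at 3.09 in complex V, Ndufb2 at 4.0 in complex I, Sdhc at 31.9 in complex II, Uqcrb at 38.0 in complex III and Cox6b2 at 0.413 in complex IV. In all, 87 of the 91 members lay above the median gene tested.

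The mitochondrial members differed widely in count. Of the 12, 7 had at least 5163 counts in every library and together held at least 99.9% of the mitochondrial members' counts. The other 5, mt-Co2, mt-Co3, mt-Atp6, mt-Atp8 and mt-Nd4l, had 26 to 207 counts per library. For mt-Co2, mt-Co3, mt-Atp6 and mt-Nd4l, 99.4, 99.8, 99.4 and 98.0% of all 150-base stretches also occurred in an annotated nuclear copy, as did 97.0% of those of mt-Nd3, which had 4 to 15 counts. For mt-Nd4 the share was 59.2%, for mt-Co1 23.6%, and for mt-Nd1, mt-Nd2, mt-Nd5, mt-Nd6 and mt-Cytb 0%. For mt-Atp8 it was 0% too, since no copy is annotated. However, 233 bases lie between the chromosome 1 copies of mt-Atp6 and mt-Co2, where the mitochondrial genome has 230 between those genes. In the mitochondrial genome mt-Atp8 (chrM:7766-7969) also overlaps mt-Atp6 (chrM:7927-8607), and the part of this overlap in its count was not tested. The copy Gm28661 had 153, 158, 125, 150, 125 and 173 counts in WT 1 to 3 and KO 1 to 3, near the 150, 142, 128, 167, 159 and 204 of mt-Co2. Whether reads with several positions were dropped in counting, which would lower the counts of genes with copies, is not given in the sources used here.

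**Figure D4:**
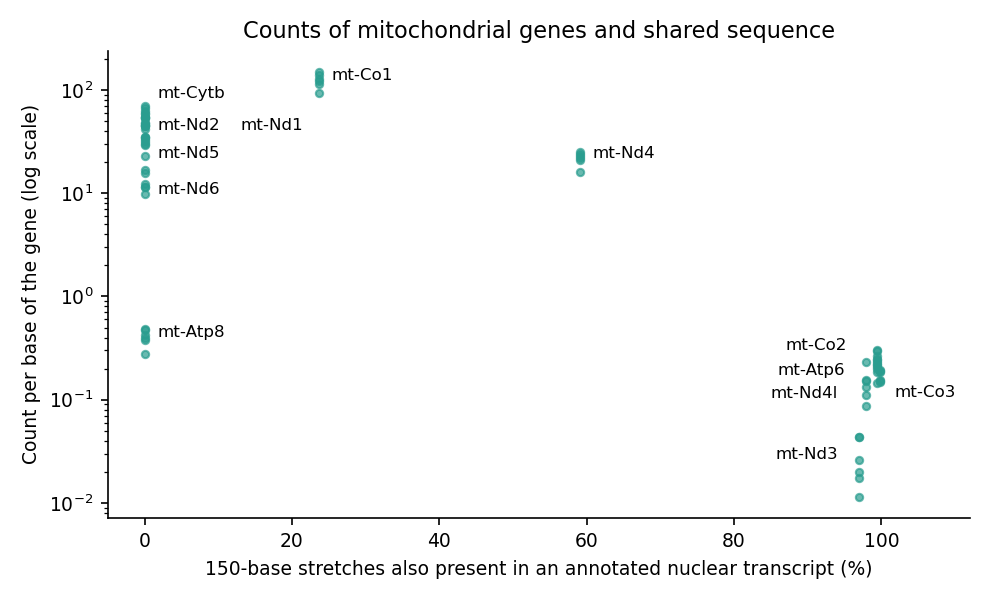
Count per base of each of the 13 mitochondrial protein-coding genes (log scale, y axis, 1 point per library) against the share of its 150-base stretches found in an annotated nuclear transcript (x axis). Genes with 97.0% or more shared, and mt-Atp8, have means over the 6 libraries at or below 0.404 counts per base, the others from 12.9 to 125.

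Of the 7 genes without near-identical copies over their whole length, mt-Co1, the catalytic subunit of complex IV (chrM:5328-6872), was the highest at 5452 CPM per kilobase. It was followed by mt-Cytb of complex III at 2648, mt-Nd1 at 2069, mt-Nd2 at 2063, mt-Nd5 at 1328, mt-Nd4 at 955 and mt-Nd6 at 567. The value of mt-Nd4 counts a length of which 59.2% of stretches are shared, and mt-Nd1 and mt-Nd2 did not differ beyond their spread. By CPM, mt-Co1 lay at 8749, 9002 and 6967 in WT and at 8151, 8772 and 8899 in KO. WT replicate 3 was the lowest, and the log2 fold change of 0.06 (SE 0.19) had a 95% interval from -0.37 to 0.49. mt-Cytb lay at 3346, 3389 and 2281 CPM in the WT libraries, against 2995, 2727 and 3440 in KO (0.02, SE 0.20). For the complex I genes the log2 fold changes were -0.01 (SE 0.16) for mt-Nd1, -0.03 (SE 0.17) for mt-Nd2, 0.06 (SE 0.16) for mt-Nd4 and 0.07 (SE 0.17) for mt-Nd5. Those of mt-Nd1 and mt-Nd2 were 0.06 and 0.05 when libraries were scaled by size alone.

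mt-Nd6 is the sole protein gene of the light strand (chrM:13552-14070, minus strand) and had the highest fold change of the mitochondrial members, 0.30 (SE 0.15; adjusted p 0.850 with edgeR's quasi-likelihood test). It lay at 293, 252 and 247 CPM in the WT libraries, against 280, 306 and 387 in KO, where KO replicate 1 lay between the WT values. The strand setting of the counting is not given in the sources used here, so reads from the opposite strand over this gene cannot be told apart from its own. Among the low members, mt-Co2 had 0.20 (SE 0.19), mt-Nd4l 0.14 (SE 0.37), mt-Atp8 0.06 (SE 0.22), mt-Co3 -0.0013 (SE 0.18) and mt-Atp6 -0.17 (SE 0.27). For mt-Co2, mt-Nd4l, mt-Co3 and mt-Atp6 the counts cannot be assigned to the mitochondrial genome alone, and for mt-Atp8 the nuclear sequence between the copies was not compared.

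WT replicate 3 was the lowest library for 10 of the 12 mitochondrial members, against 24% of all genes. The 7 genes without near-identical copies had a median deviation of 0.119, 0.101 and -0.282 in WT and of -0.036, -0.012 and 0.099 in KO. KO replicate 2, the lowest for the nuclear members, was near the middle here. Without WT replicate 3 the median log2 fold change of the mitochondrial members was -0.07, without KO replicate 3 it was -0.06, and without any other library it was positive, up to 0.12. The erythroid and neutrophil marker sums were highest in that library, as given above, and their part in the result was not tested.

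As a share of all counts, the mitochondrial members took 1.99, 2.17 and 1.5% in WT (1.89 ± 0.346%, SD, n = 3) and 1.95, 1.96 and 2.24% in KO (2.05 ± 0.165%). The nuclear members took 0.642, 0.680 and 0.621% in WT (0.648 ± 0.0301%) and 0.674, 0.558 and 0.646% in KO (0.626 ± 0.0610%). Both shares overlapped between the genotypes, and neither difference exceeded the SD of its groups. The ratio of mitochondrial to nuclear member counts was 3.10, 3.19 and 2.42 in WT and 2.89, 3.52 and 3.47 in KO. KO replicates 2 and 3 lay above all WT libraries and KO replicate 1 between them. The libraries were enriched for polyadenylated RNA, so these shares depend on the tails of mitochondrial transcripts as well as on their number. The same holds for levels and shares compared between mitochondrial genes, mt-Nd6 among them.

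**Figure D5:**
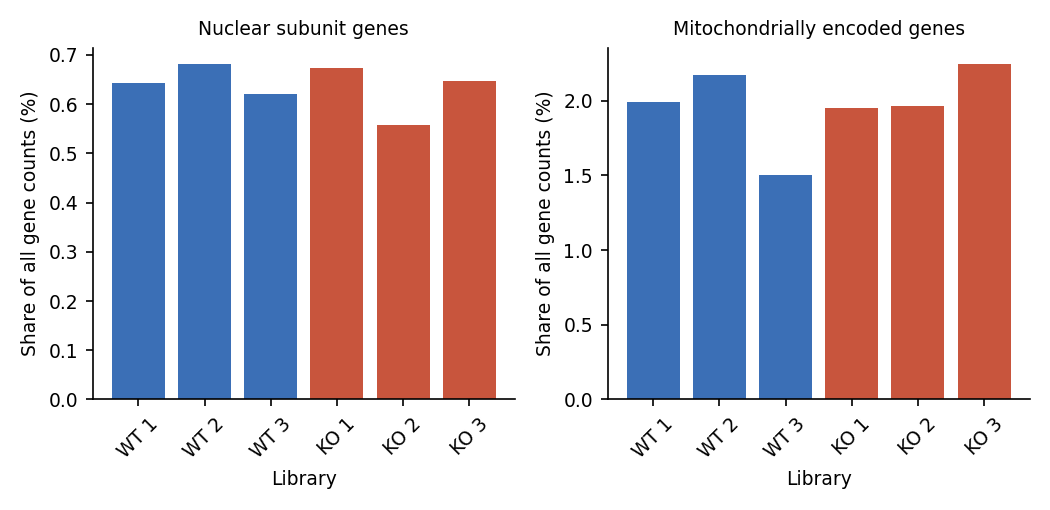
Share of all gene counts (%, y axis from 0) in the mitochondrial and in the nuclear members for each of the 6 libraries (x axis, coloured by genotype). WT replicate 3 is lowest for the mitochondrial share (1.5%) and KO replicate 2 for the nuclear share (0.558%).

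Shares within the mitochondrial counts were taken for the 7 genes without near-identical copies. Relative to its own size the share of mt-Nd6 varied most, and in percentage points that of mt-Co1 did. mt-Co1 took 41.5 to 44.8% of the mitochondrial members' counts in the 6 libraries. mt-Nd2 took 11.28, 11.29 and 10.93% in WT and 10.55, 10.77 and 10.57% in KO, so all KO values lay below all WT values. mt-Nd1 took 10.16, 10.49 and 10.18% in WT and 10.09, 9.97 and 9.64% in KO, again without overlap. mt-Nd6 took 1.39, 1.20 and 1.55% in WT and 1.47, 1.56 and 1.83% in KO, with overlap. These differences were not tested, and shares within a sum are not independent of each other. The ribosomal RNA mt-Rnr2, no member, took 0.525 to 0.898% of all counts.

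Some nuclear members share sequence with other genes. Of the 79, 23 had at least 1 stretch of 150 bases that occurs in another annotated gene, and in 6 more than 10% of stretches did. These were Atp5g2 (33.1%, with the pseudogene Gm10175), Ndufa13 (20.5%, with the neighbouring Tssk6), Atp5o (17.2%, with the antisense Gm15976), Ndufb6 (16.4%, with Smim27), Ndufb4 (13.6%, with the pseudogene Ndufb4c) and Uqcrc2 (13.6%, with Pdzd9). Their counts are uncertain to that extent. Ndufs6, Cox6a1 and Cox7a2 shared none.

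Of the genes that build and serve the chain, in 9 lists, 0 passed the test. Of 17 complex I assembly factors 10 were negative (median -0.02), as were 4 of 10 for complexes II and III (median 0.01), 19 of 25 for complex IV (median -0.04) and 5 of 8 for complex V (median -0.05). The complex IV factor Pet117 had no counts. Of 13 genes of coenzyme Q synthesis 8 were negative (median -0.03). Coq6, a hydroxylase of that pathway, lay at 11.6, 12.2 and 12.3 CPM in the WT libraries, against 10.5, 8.64 and 8.10 in KO (-0.40, SE 0.14), without overlap. Coq10b, which binds coenzyme Q, had -0.26 (SE 0.11).

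Of 28 genes for upkeep and transcription of mitochondrial DNA, 17 were negative (median -0.02). Tfb2m, the transcription initiation factor of the mitochondrial RNA polymerase, lay at 18.4, 20.6 and 20.3 CPM in the WT libraries, against 17.4, 14.7 and 14.2 in KO, without overlap (-0.36, SE 0.12, unadjusted p 0.0145, adjusted p 0.850 with edgeR's quasi-likelihood test). Tfam, which packages the mitochondrial DNA, had 0.05, and Mtpap, the mitochondrial poly(A) polymerase, 0.17 (SE 0.10). Of 14 regulators of mitochondrial biogenesis 8 were negative (median -0.02). Ppargc1a, the coactivator PGC-1α, lay at 22.4, 17.7 and 34.7 CPM in the WT libraries, against 13.3, 20.1 and 20.8 in KO (-0.46, SE 0.26). Its groups overlapped, and WT replicate 3 was high. Tfeb, a regulator of lysosomal genes, had 0.19 (SE 0.12).

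The electron carriers and membrane carriers had the lowest medians of the 9 lists. Of 9 electron carriers and their dehydrogenases 7 were negative (median -0.10). Etfdh, which feeds electrons from fatty acid oxidation into ubiquinone, lay at 193 ± 16.2 CPM in WT and 171 ± 14.4 in KO (-0.18, SE 0.11; SD, n = 3 each). Of 11 tested carriers of ATP, phosphate and other substrates 9 were negative (median -0.15). Slc25a20, the carnitine-acylcarnitine carrier, had -0.24 (SE 0.14), and the phosphate carrier Slc25a3 -0.15 (SE 0.10). The uncoupling protein Ucp1 of brown fat had no counts. Among assembly factors with the smallest p of their lists were Tmem242 for complex V (-0.21, SE 0.09), Dmac2 (-0.20, SE 0.12) and Ndufaf3 (0.20, SE 0.13) for complex I, Sdhaf1 for complex II (-0.22, SE 0.15), Uqcc2 for complex III (-0.16, SE 0.12), and Higd2a (-0.20, SE 0.11) and Coa3 (-0.16, SE 0.11) for complex IV. Atp5mpl, also a member, had -0.11 (SE 0.09).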

How the data were processed

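Read counts per gene of 6 libraries of whole mouse liver were analysed. The authors deposited whole-number counts with no normalization, and RNA was selected for poly(A) tails and sequenced as paired 150-base reads per the labels' protocols. STAR 2.7.6a, featureCounts 1.6.3, and DESeq2 1.30.0 are listed per the submitters' processing notes, with GRCm38 and mm10 as builds. What the sources used here do not give is the annotation release, the strand setting and the treatment of reads with several positions. GENCODE M21 on GRCm38 matched 52135 of 55416 gene IDs (94.1%).

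The test was edgeR 4.0.16 (quasi-likelihood, R 4.3.3) with TMM scaling, filterByExpr (minimum count 10, minimum total count 15), a term for genotype alone and Benjamini-Hochberg adjustment over 17083 genes at 0.05. Intervals are 95% intervals, and a prior count of 2 went into logged levels. The script was tested on simulated data. The common biological coefficient of variation was 0.171. Members and lists were chosen with earlier results of these data known. Named genes were all mitochondrial members, per complex the 3 nuclear members with the smallest p and those highest and lowest per kilobase, paralog pairs, and the 2 genes with the smallest p per pathway list. Others (complex I core subunits, Atp5b, Ndufb3, Sdhd, Uqcr11, Cyc1 by its role, Tfam, Ucp1, the 13 without overlap and those sharing stretches) were picked after seeing their values, and 1 item is not reported here. The alternatives comprised other scalings (DESeq2 size factors, library size alone, and scaling without mitochondrial genes), other filters, DESeq2 1.42.0, limma-voom (limma 3.58.1), a replicate block and each library left out; the mitochondrial median without near-identical copies, principal transcript lengths and the lowest library by library size were added after seeing the data.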

Additional observations from a re-analysis of the deposited data

How the results depend on the processing

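With library size alone, the nuclear median was -0.0472 and those of complexes I, IV and V -0.0382, -0.0731 and -0.0478, and Ndufa4 (0.0271), Uqcrb (0.0382), mt-Co3 (0.0798), mt-Nd1 (0.0629) and mt-Nd2 (0.0465) changed sign among the members tracked by name; in all, 19 of 79 nuclear and 3 of 12 mitochondrial members did. In limma-voom mt-Nd1 was 0.0013. No filter gave 3 called genes and DESeq2 7, and none was a member. Genes at an unadjusted p under 0.05 were 886, 1390 without a filter. With 1 library left out, called genes ranged from 0 to 2 (2 without WT replicate 3), genes at an unadjusted p under 0.05 from 452 to 1858 and the nuclear median from -0.19 to -0.08. The cause of these shifts was not tested.

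Ranges with 1 library left out that crossed 0 were the mitochondrial median (-0.07 to 0.12), Cox6b2 (-0.27 to 0.0289), Ndufa4l2 (-0.19 to 0.45), Uqcrb (-0.0959 to 0.0347), mt-Atp8 (-0.10 to 0.18), mt-Co1 (-0.0452 to 0.13), mt-Co3 (-0.0883 to 0.15), mt-Cytb (-0.14 to 0.12), mt-Nd1 (-0.14 to 0.0667), mt-Nd2 (-0.17 to 0.0407), mt-Nd4 (-0.0692 to 0.12), mt-Nd4l (-0.31 to 0.33) and mt-Nd5 (-0.0421 to 0.17). Where this left 1 genotype with 2 libraries, the spread was pooled. The difference in the nuclear share (KO minus WT) ranged from -0.046 to 0.012 percentage points and that of the mitochondrial share from -0.028 to 0.31.

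The labels do not say whether replicate numbers pair the libraries. Same-numbered deviations correlated at -0.03, -0.44 and -0.31, which cannot decide it, since other differences between libraries also set these values. With a replicate block the nuclear median was -0.13 and the mitochondrial 0.07, 0 genes were called, and members at an unadjusted p under 0.05 went from 4 to 1. The 7 mitochondrial genes without near-identical copies had a median of 0.06. Low counts limit Cox7a1, Cox6b2 and the mitochondrial members with copies.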
